A study of Mus musculus with 12 samples.

Results

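The striatum of R6/2 mice that received a virus against TRAX was set against the striatum of wild-type mice that received the control virus, over every gene of the deposited count table. The members are the 6 libraries of these 2 groups out of 12 in all, chosen by their labels. TRAX is translin-associated factor X, encoded by Tsnax, and R6/2 is a mouse line of Huntington disease. All mice were of the label strain B6CBAFI/J, were injected on both sides of the striatum with adeno-associated virus (AAV) at 5 weeks of age, and were sampled at 10.5 weeks. WT-C is wild type with AAV carrying a control shRNA, and R6/2-T is R6/2 with AAV carrying the TRAX shRNA, with 3 libraries each. Each injection spot received 2 µl, with a titer of 2.5e9 vg in a µl. The other groups of the series are WT-T, wild type with the TRAX shRNA, and R6/2-C, R6/2 with the control shRNA, also with 3 libraries each. No uninjected mice are among the samples, so every group carries a virus. Genotype and shRNA both differ between R6/2-T and WT-C and cannot be told apart within this pair.

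As background, the R6/2 line (B6CBA-Tg(HDexon1)62Gpb/3J) carries a transgene of human huntingtin first-exon sequence whose CAG repeat is expanded, a fragment model with rapid onset. Medium spiny neurons, the GABA-releasing projection neurons that make up most striatal neurons, are the cells known to lose their characteristic transcripts early in this disease. The direct-pathway neurons among them carry the dopamine D1 receptor with dynorphin and substance P, and the indirect-pathway neurons carry the dopamine D2 and adenosine receptors (Adora2a) with enkephalin. The labels name neither the promoter that drove the shRNA nor the cells that took up the virus, and they do not say that each library came from a separate mouse. The p-values therefore measure the spread between libraries, which may be technical in part. In dissected tissue, fewer cells of a type and less RNA per cell cannot be told apart.

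The libraries held between 131783370 and 229332386 StringTie counts, from 32206234 to 57308865 sequenced fragments. The defining transcripts of the labelled tissue were abundant: in units of CPM (counts scaled by library size, comparable between libraries but not between gene lengths), the 24 measured medium spiny neuron genes summed to 17090, 19380 and 17500 CPM for WT-C, against 54.2 to 92.5 CPM for 9 cortical excitatory neuron genes. Pairs of libraries of WT-C and R6/2-T differed by a root mean square of 1.195 in log2 CPM on average (range 1.06 to 1.32 over 9 pairs), against 0.860 within WT-C and 0.870 within R6/2-T. Pairs of WT-C and R6/2-C lay at 1.04 (0.979 to 1.15), so the R6/2-T libraries were on average no nearer to WT-C than the R6/2-C libraries were. This is a description, since the pairs share libraries. By chi-square per degree of freedom of their fragment counts, the R6/2-T libraries lay closest together, at 10.8 to 12.4 against 29.7 to 123 within the other groups. That is above sampling noise, so they are not 1 library deposited more than once. The measure grows with depth, and R6/2-T held 32206234 to 37909842 fragments, though R6/2-C 2 and 3, at 38881152 and 36048737, gave 50.9. By root mean square R6/2-T was not closest, at 0.858 to 0.882, against 0.817 to 0.895 within WT-C and 0.772 to 1.049 within WT-T. The root mean square takes in genes of low count, whose noise grows as depth falls. The part of depth in the root mean squares given here was not tested. The log2 difference of R6/2-T to WT-C moved with GC content (Pearson r = -0.248) and with transcript length (r = 0.174) across 14829 genes, which are not independent replicates. The closing section gives the counts after correction for both.

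The targeted gene was low in R6/2-T. Tsnax (ENSMUSG00000056820, chr8:125012997-125034192, GRCm38) stood at 151, 152 and 167 CPM for WT-C and at 44.7, 39.99 and 47.03 CPM for R6/2-T. The groups did not overlap, and the log2 difference was -1.83 (SE 0.11, adjusted p = 8.29e-06). In R6/2-C the values were 197, 168 and 189 CPM and in WT-T 32.9, 27.6 and 33.6 CPM, so the level followed the shRNA label in every library. Tsn, which encodes the TRAX partner translin, was slightly higher in R6/2-T, at 89.2, 84.3 and 87.5 against 72.4, 64.8 and 62.7 CPM, a log2 difference of 0.39 (SE 0.089, adjusted p = 0.0104). Its call was lost in 3 alternatives, both FPKM fits and the GC and length correction. Disc1, a scaffold gene linked to psychiatric illness, was at 1.30, 1.61 and 1.84 CPM for WT-C and 0.784, 0.677 and 0.995 CPM for R6/2-T, with a log2 difference of -0.95 (SE 0.24, adjusted p = 0.0168). The Disc1 call was lost without WT-C 3, without R6/2-T 1, without R6/2-T 2 and under the GC and length correction. The mouse huntingtin gene Htt (the human transgene was not analysed here) did not pass the test, with a log2 difference of 0.31 (adjusted p = 0.17) and a 95% interval of -0.03 to 0.64. It passed with only the 2 groups compared (0.31, adjusted p = 0.00774).

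Across the transcriptome, 5896 of 23453 genes tested differed between R6/2-T and WT-C at an adjusted p under 0.05 (edgeR quasi-likelihood test), which is 25.1%. Of these, 2942 were higher (12.5%) and 2954 lower (12.6%) in R6/2-T. The median absolute log2 difference among the called genes was 0.71, and 430 genes (1.83%) exceeded 1.5-fold by a test against that fold (glmTreat at an adjusted p under 0.05), 115 of them higher (0.49%) and 315 lower (1.34%). The counts of called genes depended on single libraries of the groups compared. Without WT-C 3 there were 1853 higher and 1566 lower, without R6/2-T 1 there were 1744 and 1464, without R6/2-T 2 there were 2153 and 1684, and without R6/2-T 3 there were 1750 and 1771. The 430 became 192 without WT-C 2, 212 without WT-C 3, 159 without R6/2-T 1, 195 without R6/2-T 2 and 203 without R6/2-T 3. At the other end, 5970 genes (25.5%) had a 95% interval of the log2 difference that lay within 1.5-fold of WT-C in both directions, and 570 of those were among the called genes. A further 12157 genes were neither called nor held within 1.5-fold, so for these the libraries do not settle whether R6/2-T was near WT-C.

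**Figure D1:**
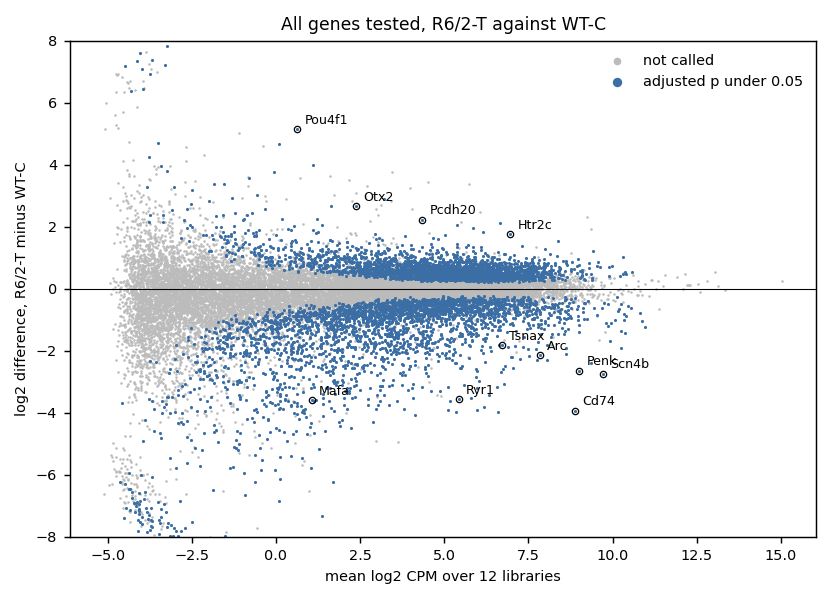
Log2 difference of R6/2-T minus WT-C against the mean log2 CPM for the 23453 genes tested, with called genes in blue and 11 named genes circled. Scn4b lies at -2.74 and Pcdh20 at 2.22, and 63 genes beyond 8 log2 units on either side lie outside the axis.

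Medium spiny neuron transcripts were lower in R6/2-T than in WT-C. Of 24 measured genes of this list, 18 fell (75%, against 12.6% over all genes) and 6 did not pass the test. The median log2 difference was -1.14, against -0.04 over all genes tested. In 22 of 24 the libraries of the groups did not overlap, which held for 47.6% of all genes. Scn4b, the sodium channel beta subunit known for resurgent current (ENSMUSG00000046480, chr9:45138395-45154152), was at 1401, 1296 and 1437 CPM for WT-C and 189.9, 189.9 and 239 CPM for R6/2-T. The groups lay far apart, with a log2 difference of -2.74 (SE 0.14, adjusted p = 7.09e-06). Ppp1r1b, which encodes the dopamine-regulated phosphatase inhibitor DARPP-32, was at 1636, 2165 and 1621 CPM for WT-C and 454, 479 and 511 CPM for R6/2-T. These groups did not overlap either, and the log2 difference was -1.91 (SE 0.18, adjusted p = 1.13e-04). Kcnip2, a subunit that tunes A-type potassium channels, fell from 193, 199 and 177 to 49.6, 48.98 and 54.3 CPM, and Rgs9, a brake on G-protein signalling in these neurons, from 509, 572 and 536 to 198, 193 and 193 CPM. The log2 differences were -1.90 for Kcnip2 and -1.47 for Rgs9, both past the test. Arpp21, a cAMP-regulated phosphoprotein of these cells, had a log2 difference of -1.21 (SE 0.10, adjusted p = 6.98e-05). Pde10a, the main striatal cyclic nucleotide phosphodiesterase, did not pass the test, and its libraries scattered, at 791, 1631 and 1642 CPM for WT-C and 646, 267 and 619.5 CPM for R6/2-T, with a log2 difference of -1.41 (adjusted p = 0.0718). It passed in 5 of 22 alternatives, among them the recovered fragment counts, where the difference was -1.46.

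Pathway genes of both projection neuron classes were lower in part, and some were higher. Of 10 direct-pathway genes, 5 fell (50%), 3 rose (30%) and 2 did not pass. Of 8 indirect-pathway genes 4 fell (50%), 1 rose (12.5%) and 3 did not pass. Over all genes 12.6% fell and 12.5% rose. The 3 rises became 1 without WT-C 3 and 1 without R6/2-T 1. The 1 rise in the indirect list was lost without any 1 of 8 libraries, WT-C 2, WT-T 1, WT-T 3 and R6/2-T 3 being those it survived. Penk, the enkephalin precursor of indirect-pathway neurons, was at 1024, 689 and 1173 CPM for WT-C and 142, 159.6 and 160.5 CPM for R6/2-T. Its log2 difference was -2.65 (SE 0.29, adjusted p = 3.33e-04), and -2.04 on recovered fragments. Adora2a, the adenosine receptor of these cells, was at 345, 445 and 357 CPM for WT-C and 125, 150.1 and 144 CPM for R6/2-T, and Drd2, the D2 receptor, at 299, 337 and 289 CPM for WT-C and 124, 126 and 129 CPM for R6/2-T. Both fell, by log2 differences of -1.46 and -1.29. On the direct side, Drd1, the D1 receptor, was at 208, 198 and 226 CPM for WT-C and 118, 95.5 and 111 CPM for R6/2-T, a log2 difference of -0.96 (SE 0.10, adjusted p = 2.80e-04). Chrm4, the muscarinic M4 receptor of these neurons, fell by a log2 difference of -1.24. Tac1, the substance P precursor, did not pass, at 128, 124 and 151 CPM for WT-C and 145, 112 and 133 CPM for R6/2-T. Those values overlap, the 95% interval of the log2 difference was -0.35 to 0.26, and that interval lies within 1.5-fold. Eya1, a developmental phosphatase and cofactor gene on the direct-pathway list, was higher in R6/2-T at 13.9, 13.9 and 15.8 CPM against 7.71, 6.91 and 7.10 CPM, a log2 difference of 1.01 (SE 0.17, adjusted p = 0.00196).

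**Figure D2:**
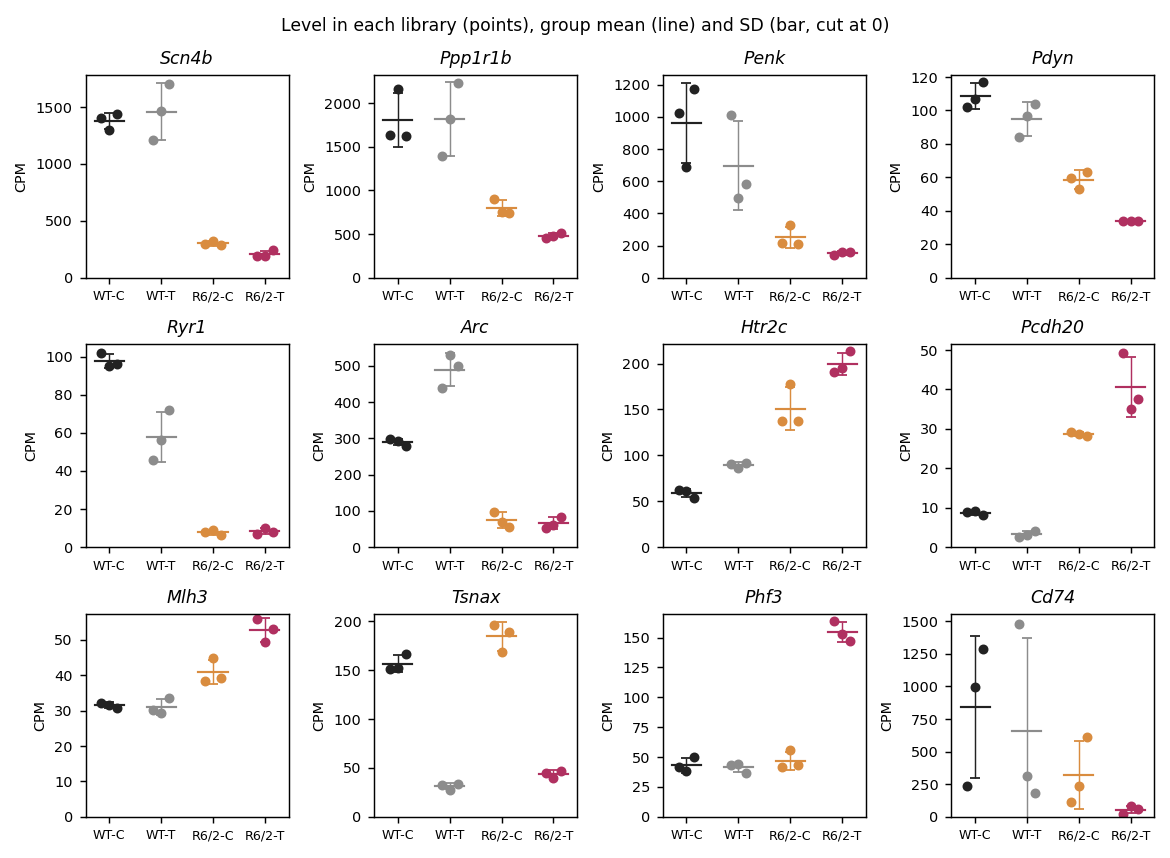
CPM of 12 named genes in each of the 12 libraries, grouped by genotype and shRNA, with linear axes from 0. Scn4b, Ppp1r1b, Penk, Pdyn, Ryr1 and Arc are lower in R6/2-T than in WT-C, Htr2c, Pcdh20, Mlh3 and Phf3 are higher, and Cd74 spreads widely in WT-C and WT-T.

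Pdyn, the dynorphin precursor of direct-pathway neurons (ENSMUSG00000027400, chr2:129686565-129699844), was the one gene of the medium spiny neuron and pathway lists called between R6/2-T and R6/2-C. It stood at 102, 107 and 117 CPM for WT-C, 59.9, 52.8 and 63.4 CPM for R6/2-C and 34.05, 33.7 and 33.6 CPM for R6/2-T. Each step was downward and no group overlapped another. R6/2-T against WT-C gave a log2 difference of -1.69 (SE 0.10, adjusted p = 1.21e-05), and R6/2-T against R6/2-C one of -0.80 (SE 0.10, adjusted p = 0.0292), which was 1 of 16 genes (0.0682%) called in the latter. The R6/2-T libraries serve in both of these comparisons, and the R6/2-C libraries were lower than WT-C too, with a log2 difference of -0.89.

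Activity-regulated genes were also low. Of 22 immediate-early genes, which neurons and glia transcribe within minutes of stimulation, 20 fell and the other 2 did not pass, with a median log2 difference of -1.34. The 20 were 90.9% of the list, against 12.6% lower over all genes. The libraries did not overlap in any of the 22, which held for 47.6% of all genes. Arc, a regulator of synaptic receptor turnover, was at 298, 293 and 279.5 CPM for WT-C and 52.4, 60.1 and 84.6 CPM for R6/2-T, a log2 difference of -2.14 (SE 0.21, adjusted p = 1.54e-04). Dusp1 and Dusp6 encode phosphatases that shut off MAP kinases. Dusp1 was at 37.8, 37.5 and 37.6 CPM for WT-C and 17.9, 16.6 and 17.2 CPM for R6/2-T, and Dusp6 at 70.6, 51.99 and 73.97 CPM for WT-C and 20.6, 24.4 and 26.7 CPM for R6/2-T. The log2 differences were -1.13 (SE 0.13, adjusted p = 3.60e-04) for Dusp1 and -1.45 (SE 0.17, adjusted p = 3.59e-04) for Dusp6. Egr2, a zinc-finger factor chosen here after its values were seen, had the largest fall of the list, from 33.99, 27.8 and 16.7 to 1.46, 1.25 and 2.57 CPM, with a log2 difference of -3.89 (SE 0.57, adjusted p = 0.00151). Fosb and Nr4a2, also chosen after their values were seen, did not pass, at -0.66 and -1.24.

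The promoters of these genes are shown because many of them are known to be driven by CREB, the cAMP-responsive factor that binds the cAMP response element. RefSeq windows of 300 bases on GRCm38.p6, from 250 before to 50 after each gene start, were at hand for 15 of the 20 fallen immediate-early genes (21 windows). The full palindromic element TGACGTCA, searched on both strands, occurred in the windows of 2 genes, Btg2 and Dusp1, or 9.52% of the 21 windows, against 1.79% of all 32851 windows. The EGR site GCGTGGGCG, also searched on both strands, occurred in none of the 21 and in 0.612% of all windows, and the serum-response CArG box in 4 windows of 1 gene, Egr2, and in 1.63% of all. None of the 3 motifs occurred in the 29 windows of 14 fallen medium spiny neuron genes. A match is a description of letters, not evidence of binding, and the windows of 1 gene overlap. The part of both windows before the gene start follows, 5′ to 3′ on the gene's strand, with the element in capitals. Btg2 lies at chr1:134079156-134079405 on the minus strand, with the element starting 166 bases before the gene start, and Dusp1 at chr17:26508473-26508722 on the minus strand, with the element starting 143 bases before it.
Btg2: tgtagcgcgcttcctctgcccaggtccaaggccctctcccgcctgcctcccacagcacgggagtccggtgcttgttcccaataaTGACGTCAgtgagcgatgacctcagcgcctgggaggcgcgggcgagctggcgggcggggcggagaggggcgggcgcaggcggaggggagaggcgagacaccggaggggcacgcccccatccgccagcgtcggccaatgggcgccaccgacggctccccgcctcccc
Dusp1: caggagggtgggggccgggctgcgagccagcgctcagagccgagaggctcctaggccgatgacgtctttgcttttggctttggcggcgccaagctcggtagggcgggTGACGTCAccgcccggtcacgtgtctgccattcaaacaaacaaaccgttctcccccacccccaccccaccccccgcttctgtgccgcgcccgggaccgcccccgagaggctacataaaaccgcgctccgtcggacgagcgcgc

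Btg2, an antiproliferative early response gene, was at 13.8, 23.7 and 19.5 CPM for WT-C and 8.63, 11.2 and 10.97 CPM for R6/2-T, a log2 difference of -0.89 (SE 0.19, adjusted p = 0.00721). Its fall was smaller than that of Dusp1 or Arc, and WT-C 1 was its lowest WT-C library.

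Calcium-handling genes were lower in part, and Ryr1 had one of the larger falls. Ryr1, a calcium release channel of the endoplasmic reticulum best known from skeletal muscle (ENSMUSG00000030592, chr7:29003344-29125179), was at 102, 94.95 and 96.2 CPM for WT-C and 6.94, 10.02 and 7.84 CPM for R6/2-T. Its mean in R6/2-T was 8.46% of that in WT-C, a log2 difference of -3.56 (SE 0.20, adjusted p = 7.09e-06). R6/2-C was at 8.06, 9.09 and 6.49 CPM, and R6/2-T against R6/2-C gave 0.07 (adjusted p = 0.87). Of 20 calcium-handling genes, 9 fell (45%, against 12.6% over all genes) and 11 did not pass. The 9 became 5 without WT-C 1, 4 without R6/2-T 1, 4 without R6/2-T 2 and 5 without R6/2-T 3. Hpca, the neuronal calcium sensor hippocalcin, was among the 9, with a log2 difference of -1.10 (SE 0.095, adjusted p = 7.51e-05). Kcnh4, a voltage-gated potassium channel of the striatum, was at 33.8, 44.2 and 28.9 CPM for WT-C and 6.49, 6.35 and 6.67 CPM for R6/2-T, a log2 difference of -2.45 (SE 0.20, adjusted p = 5.15e-05), and was 1 of 4 potassium channel genes of 20 that fell, or 7 with the GC and length correction. Together 25% of the potassium channel list was called, which is about the share over all genes. The 1 that rose, a call lost without R6/2-T 3 and joined by another without R6/2-C 2, was Kcnj3, a G-protein-gated channel chosen after its values were seen, at 1.24. Of 23 glutamate receptor and scaffold genes 6 fell, among them Shank3 at -1.27 and Baiap2 at -1.10, both postsynaptic scaffold genes. That is 26.1% of the list, near the 25.1% called over all genes. Of 23 cAMP signalling genes 6 fell, or 10 on recovered fragments and 10 with only the 2 groups compared, and 1 rose. That rise was lost without WT-C 3 or R6/2-T 3 and joined by another without R6/2-T 2. Called as reported were 30.4% of the list, against 25.1% over all genes. Adcy5, the main striatal adenylyl cyclase, was at 1521, 1750 and 1485 CPM for WT-C and 619, 604 and 629 CPM for R6/2-T, a log2 difference of -1.36 (SE 0.17, adjusted p = 5.77e-04). Of 14 GABA transmission genes, 4 rose (28.6%), 1 fell (7.14%) and 9 did not pass, against 12.5% higher and 12.6% lower over all genes. The 4 became 2 without WT-C 3 and 2 without R6/2-T 1. Gabrd, the delta subunit of extrasynaptic receptors, was the 1 lower, at -1.32.

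Several named genes were higher in R6/2-T, without a common list. Pcdh20, a nonclustered protocadherin (ENSMUSG00000050505, chr14:88464743-88471396), was at 8.90, 9.09 and 8.15 CPM for WT-C and 49.2, 35.05 and 37.6 CPM for R6/2-T, a log2 difference of 2.22 (SE 0.18, adjusted p = 4.75e-05). Htr2c, the serotonin 2C receptor, was at 62.1, 61.1 and 53.9 CPM for WT-C and 191, 195 and 213 CPM for R6/2-T, a log2 difference of 1.76 (SE 0.11, adjusted p = 1.62e-05). Choroid plexus, known to hold much Htr2c, gave higher marker sums in R6/2-T as described below, and its part in the Htr2c value was not tested. Sfmbt2, a Polycomb-associated gene, was at 4.32, 5.00 and 3.89 CPM for WT-C and 13.1, 13.9 and 14.1 CPM for R6/2-T, and Tmc3, of a transmembrane channel-like family, at 0.67, 0.968 and 1.08 CPM for WT-C and 5.16, 6.88 and 5.38 CPM for R6/2-T. Both rose, by log2 differences of 1.64 and 2.67. Of 17 developmental transcription factor genes tested, 2 rose and 2 fell, or 11.8% each way, which is no more than the 12.5% higher and 12.6% lower over all genes. Pou4f1, a sensory neuron factor, was at 0.0939, 0.0239 and 0.155 CPM for WT-C and 3.20, 3.78 and 3.05 CPM for R6/2-T, groups far apart, with a log2 difference of 5.15 (SE 0.64, adjusted p = 5.02e-04). Wt1, the Wilms tumour factor, was at 0.503, 0.406 and 0.799 CPM for WT-C, 4.61, 6.86 and 5.84 CPM for R6/2-C and 2.69, 1.84 and 3.57 CPM for R6/2-T. All R6/2-T libraries of Wt1 lay between WT-C and R6/2-C. R6/2-T against WT-C gave 2.24 (SE 0.40, adjusted p = 0.00314) for Wt1, and the step from R6/2-C to R6/2-T, at -1.09 (adjusted p = 0.17), did not pass the test. Kpna1, Scn3b and Nek7, other genes among the largest rises, were at 191, 168 and 174 CPM, at 149, 41.9 and 119.8 CPM and at 25.4, 87.4 and 90.2 CPM for R6/2-T. R6/2-T 2 of Scn3b and R6/2-T 1 of Nek7 stood well below the other libraries of the group, and on recovered fragments the differences were 0.41, 0.47 and 0.38 in place of 2.10, 1.95 and 1.73. Mccc1os, at 2.07, and Abhd11os, among the largest falls at -4.43, lie opposite other genes, and the sources used here do not give the strand setting of the counting.

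Mismatch repair genes, whose products are known to act on expanded CAG repeats, were higher. Of 9 mismatch repair genes, 6 rose (66.7%, against 12.5% over all genes) and the other 3 did not pass, with a median log2 difference of 0.51. Mlh3, an endonuclease subunit, was at 32.2, 31.7 and 30.7 CPM for WT-C and 55.9, 49.4 and 53.1 CPM for R6/2-T. Its groups did not overlap, and the log2 difference was 0.74 (SE 0.091, adjusted p = 4.74e-04). Of 18 double-strand break repair genes 6 rose (33.3%, against 12.5% over all genes), or 3 without R6/2-T 1. Lig4, the ligase of end joining, was at 13.7, 12.3 and 14.4 CPM for WT-C and 21.9, 22.4 and 22.5 CPM for R6/2-T, a log2 difference of 0.72 (SE 0.097, adjusted p = 6.87e-04). Of 18 p53 target genes 7 fell (38.9%, against 12.6% over all genes), or 4 without WT-C 3, R6/2-T 2 or R6/2-T 3. Among the 7 was the cell-cycle inhibitor Cdkn1a at -1.71.

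Energy genes lay mostly within 1.5-fold of WT-C. Of 28 nuclear genes of oxidative phosphorylation, 22 had a 95% interval within 1.5-fold, and 8 rose by small amounts (28.6%, against 12.5% over all genes). Over all genes 25.5% had such an interval. Its width depends on how precisely a gene was measured, and the lists were not matched to other genes for level. Atp5b, an ATP synthase subunit, had the largest of these, at 1076, 956 and 1009 CPM for WT-C and 1359, 1341 and 1380 CPM for R6/2-T, a log2 difference of 0.42 (SE 0.093, adjusted p = 0.00836). The 8 became 4 without WT-C 2, 5 without WT-C 3, 3 without R6/2-T 1 and 3 without R6/2-T 3. Of 13 mitochondrially encoded genes, 0 passed the edgeR test, 1 had an unadjusted p under 0.05, DESeq2 called 0, edgeR with only the 2 groups compared called 1 higher, and 9 lay within 1.5-fold. Of 11 huntingtin-interacting and energy regulator genes 3 rose and 0 fell, and 6 lay within 1.5-fold. The share called, 27.3%, was near the 25.1% called over all genes, of which 12.5% were higher. Among the 3 were both catalytic AMP kinase subunits, Prkaa1 by 0.81 and Prkaa2 by 0.86 on the log2 scale. Of 20 chaperone genes 3 rose (15%, near the 12.5% over all genes) and 7 fell (35%, against 12.6%). The 3 were 6 with non-robust estimation, 7 with DESeq2, recovered fragments or the GC and length correction, and 8 with only the 2 groups compared. Hsp90aa1, an inducible HSP90, rose by 0.70 on the log2 scale, and Hspa1b, an inducible HSP70 with a near-identical copy beside it, fell by a log2 difference of -1.25. The 3 became 1 without WT-C 2, 1 without WT-C 3, 6 without WT-T 1 and 5 without R6/2-C 3, and the 7 became 4 without R6/2-T 1 and 4 without R6/2-T 2.

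Myelin and astrocyte genes were lower in part. Of 15 myelin genes 12 fell (80%, against 12.6% over all genes), with a median log2 difference of -0.76, or 6 without R6/2-T 1. Cldn11, a tight-junction protein of myelin, was at 246, 282 and 224 CPM for WT-C and 98.4, 103 and 102 CPM for R6/2-T, a log2 difference of -1.31 (SE 0.13, adjusted p = 1.43e-04). Of 15 astrocyte genes 9 fell (60%), with smaller sizes, such as the sodium pump subunit Atp1b2 at -0.83 and the potassium channel Kcnj10 at -0.59.

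The remaining lists gave the following counts, to be read against 12.5% higher and 12.6% lower over all genes. Of 9 oligodendrocyte precursor genes 4 fell, or 1 without WT-C 1, 1 without WT-C 2 and 0 without R6/2-T 1 or R6/2-T 3. Of 14 endothelial and mural genes 7 fell, or 4 without R6/2-T 1, among them the blood-brain barrier transporter Abcb1a at -0.63. Of 11 interneuron genes 5 fell, with 3 without WT-C 1, WT-C 2, WT-T 2 or R6/2-T 1 and 2 without WT-C 3, R6/2-T 2 or R6/2-T 3. Of 10 neurotrophin genes 3 fell, with 1 without WT-C 2, WT-C 3, WT-T 2 or R6/2-T 1 and 0 without WT-C 1, R6/2-T 2 or R6/2-T 3. Of 21 cholesterol genes 6 fell (28.6%), or 12 with 1 rise on recovered fragments, and of 12 integrated stress response genes 4 fell and 1 rose. Of 6 ependymal genes 1 fell (16.7%), of 5 erythroid genes 1 fell (20%), and of 9 cortical excitatory neuron genes 1 rose (11.1%), so these lists were called about as often as all genes. The ependymal count was 0 without R6/2-T 2 and 2 without WT-C 1, WT-T 3 or R6/2-T 3. The erythroid count was 0 without any 1 WT-C library, R6/2-T 1 or R6/2-T 2, 3 without R6/2-C 1 or R6/2-T 3 and 4 without R6/2-C 3. The cortical count was 0 without WT-C 3 or any 1 library of R6/2-T and 2 without WT-T 1 or WT-T 3. Of 14 genes of TRAX partners and small RNA pathways 3 rose (21.4%) and 2 fell (14.3%), with 1 fall without WT-C 3, R6/2-T 1 or R6/2-T 2.

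Reactive and immune genes were lower in R6/2-T, and their levels varied widely among the libraries of the other groups. The 12 reactive astrocyte genes all passed (100%, against 12.6% lower over all genes), with a median log2 difference of -2.03. Of these, 7 passed without WT-C 3 and 7 without R6/2-T 3. Their sums were 1437, 1997 and 2741 CPM for WT-C, 2347, 1508 and 850.2 CPM for WT-T, 673, 1237 and 1282 CPM for R6/2-C and 581, 573 and 578 CPM for R6/2-T. The R6/2-T libraries were nearly equal and below every other library. Cxcl10, an interferon-induced chemokine on that list, was at 25.1, 43.2 and 92.5 CPM for WT-C, 12.2, 29.7 and 46.7 CPM for R6/2-C and 1.94, 2.79 and 5.97 CPM for R6/2-T, and R6/2-T against WT-C gave -3.91 (SE 0.66, adjusted p = 0.003).

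Of 13 antigen presentation genes 11 fell (84.6%, against 12.6% over all genes), with a median log2 difference of -2.55. Cd74, the chaperone of class II molecules, was at 234, 999.5 and 1290 CPM for WT-C, 1482, 312 and 181 CPM for WT-T, 112, 239.8 and 614 CPM for R6/2-C and 22.96, 79.4 and 62.9 CPM for R6/2-T. WT-C 1 stood far below the other two WT-C libraries, and the SE of the log2 difference of -3.93 (SE 1.02, adjusted p = 0.0197) was large. The 11 became 1 without WT-C 2 and 0 without WT-C 3, R6/2-T 1, R6/2-T 2 or R6/2-T 3. Of 14 interferon-stimulated genes 9 fell (64.3%), with 4 without WT-C 2, 1 without WT-C 3, 0 without R6/2-T 1 and 2 without R6/2-T 2. Their sums were 765, 1549 and 2109 CPM for WT-C and 231, 466 and 630.2 CPM for R6/2-T. Of 16 microglial genes 11 fell (68.8%), with 5 without WT-C 3 and 3 without R6/2-T 1. The other 5 did not pass as reported. The log2 difference was negative in 14 of the 16, and the highest was 1.425. The microglial sums were 1107, 1641 and 2040 CPM for WT-C and 528, 610.4 and 669.7 CPM for R6/2-T. Tmem119, a marker of resident microglia, was at 51.4, 85.9 and 92.2 CPM for WT-C and 25.7, 34.6 and 30.6 CPM for R6/2-T, a log2 difference of -1.34 (SE 0.27, adjusted p = 0.00592). Of 12 lymphocyte and granulocyte genes 6 fell (50%), with 1 without WT-C 2, WT-C 3, R6/2-T 1 or R6/2-T 2 and 3 without R6/2-T 3. The Cd8a level, of cytotoxic T cells, was 1.56, 6.46 and 10.5 CPM for WT-C and 0.137, 0.182 and 0.655 CPM for R6/2-T. Of the 12 largest falls, 5 were immunoglobulin genes, Ighv1-72, Iglv3, Ighg1, Iglc2 and Igkv3-2, and their calls were lost in 4 to 13 of the alternatives. Iglv3 was at 0.637, 28.9 and 0.151 CPM for WT-C, so 1 library set its value, and members of this family share reads with near copies. In R6/2-T against R6/2-C, the antigen presentation, interferon-stimulated and microglial medians were -1.80, -1.74 and -0.89, while R6/2-C against WT-C gave -0.84, -0.31 and -0.52. No member of the 3 lists passed the edgeR test in either of these comparisons. In R6/2-T against R6/2-C an unadjusted p under 0.05 was reached by 8 antigen presentation, 13 interferon-stimulated and 11 microglial genes. No share over all genes stands beside these unadjusted counts. Genes of 1 list are also not independent of each other, so no result is read from the counts. The part of immune cell content in these values was not tested.

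**Figure D3:**
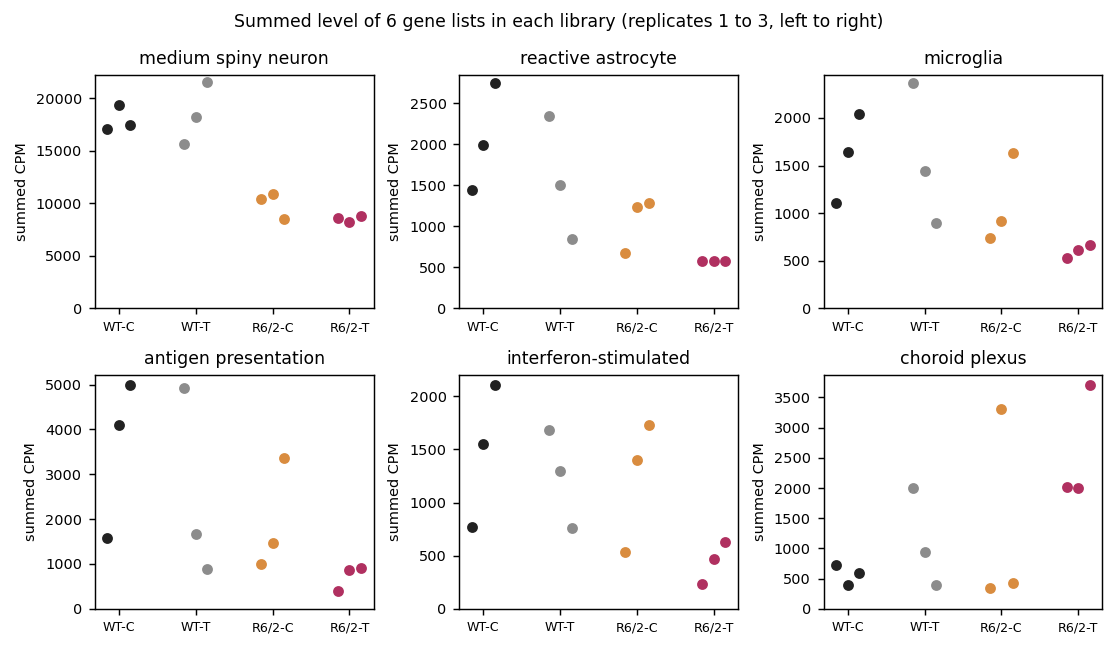
Summed CPM of 6 gene lists in each library, 3 libraries a group, with linear axes from 0. The reactive astrocyte and microglial sums of R6/2-T lie below every other library, the medium spiny neuron sums of R6/2-T lie at 8203 to 8765 CPM against 17090 to 19380 CPM for WT-C, and the choroid plexus sums are high in R6/2-T and in R6/2-C 2.

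Choroid plexus markers were high in every R6/2-T library. Their 10 genes summed to 725, 398 and 590.5 CPM for WT-C, 1996, 935 and 386 CPM for WT-T, 347, 3307 and 429 CPM for R6/2-C and 2020, 2008 and 3707 CPM for R6/2-T. R6/2-C 2 and WT-T 1 were high as well, so the level did not follow genotype or shRNA alone. In all 10 genes the R6/2-T libraries lay above WT-C. Libraries of these 2 groups did not overlap in 47.6% of all genes, and markers of 1 tissue are not independent of each other. No defining marker was at 0 in any library of either group. The median log2 difference was 2.87, and 2 of 10 passed (20%, against 12.5% higher over all genes). They were Otx2 at 2.65 (SE 0.81, adjusted p = 0.0383) and Clic6 at 2.07 (SE 0.55, adjusted p = 0.0219). The 2 were 10 with only the 2 groups compared, 7 with DESeq2 and 4 with FPKM at pseudocount 1, and 1 with no low-count filter. They became 10 without R6/2-C 2, 4 without R6/2-C 1, 1 without WT-T 2, R6/2-T 1 or R6/2-T 2, and 0 without R6/2-T 3 or any 1 library of WT-C. Ttr, the thyroxine carrier that the choroid plexus secretes and which was chosen after its values were seen, was at 293, 115 and 249 CPM for WT-C and 825, 969 and 1495 CPM for R6/2-T, with a log2 difference of 2.32 (adjusted p = 0.13). Msx1, among the largest rises, had its highest level of all libraries in R6/2-C 2, at 17.65 CPM, and its call was lost in 11 alternatives.

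**Figure D4:**
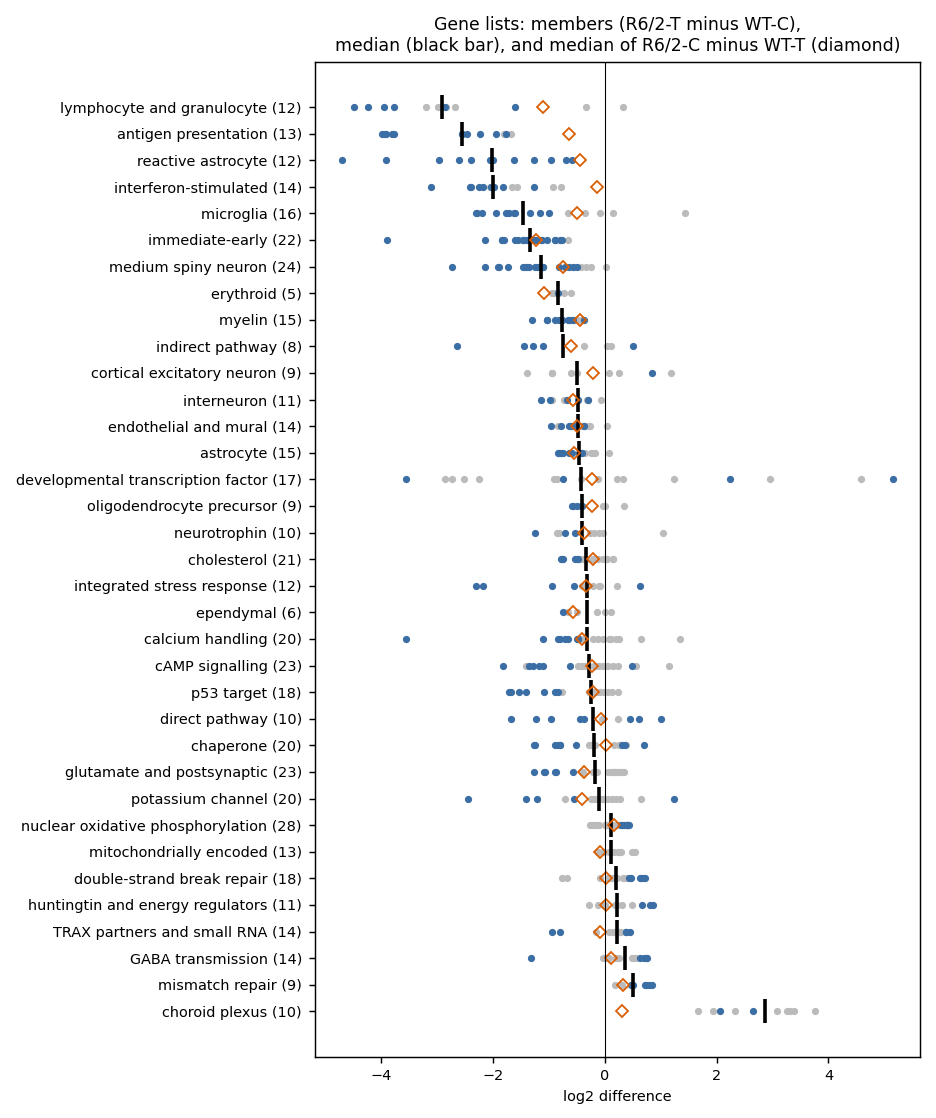
Log2 difference of R6/2-T minus WT-C for each tested member of 35 gene lists (number of members in brackets), called members in blue, with the list's median as a bar and its median in R6/2-C minus WT-T as a diamond. The immediate-early and medium spiny neuron lists lie low in both, and the antigen presentation, interferon-stimulated and choroid plexus lists have medians further from 0 in R6/2-T minus WT-C than in R6/2-C minus WT-T.

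Within R6/2, few genes differed between the TRAX and the control shRNA. R6/2-T against R6/2-C called the 16 genes counted above, 12 higher (0.0512%) and 4 lower (0.0171%) of 23453 tested, and 15 of these 16 were also called against WT-C, with R6/2-T libraries shared by both. R6/2-C against WT-C called 2131 genes (9.09%), 1142 higher (4.87%) and 989 lower (4.22%), 3 of the 16 among them. In wild type the TRAX shRNA against the control shRNA called 1 gene (0.00426%), Tsnax itself, which was lower (0.00426%). The 16 genes were chosen after their values were seen, and the counts were not recomputed under the alternatives, the GC and length correction among them. The log2 difference of R6/2-T to R6/2-C moved with transcript length (Pearson r = 0.349) and with GC content (r = -0.221) across 14829 genes. The part of transcript length and GC content in the 16 calls was not tested. The 4 lower were Tsnax, Pdyn, Nptx2 and Fkbp1a. Nptx2, an activity-regulated pentraxin that gathers glutamate receptors, was at 33.1, 42.04 and 42.7 CPM for WT-C, 17.1, 11.8 and 11.8 CPM for R6/2-C and 6.41, 5.10 and 5.32 CPM for R6/2-T. It stepped down as Pdyn did, with -1.53 from WT-C to R6/2-C and -1.27 (SE 0.18, adjusted p = 0.0401) from there to R6/2-T. Fkbp1a, which encodes the immunophilin FKBP12, had -0.74 against WT-C, but -0.28 on recovered fragments. Against R6/2-C it had -1.2, but -0.30 on recovered fragments. Among the 12 higher, Slc5a3, the myo-inositol transporter, was at 43.2, 34.8 and 41.9 CPM for WT-C, 28.1, 36.5 and 34.2 CPM for R6/2-C and 57.7, 58.3 and 61.6 CPM for R6/2-T, with 0.84 (SE 0.12, adjusted p = 0.0401) between the R6/2 groups. Phf3, a regulator of RNA polymerase II elongation (ENSMUSG00000048874, chr1:30802339-30873921), was at 41.3, 38 and 50.1 CPM for WT-C, 41.2, 55.6 and 43.5 CPM for R6/2-C and 164, 153 and 147 CPM for R6/2-T. On recovered fragments its difference to WT-C was 0.53 in place of 1.84, and that to R6/2-C 0.42 in place of 1.725. The other 10 were the translational regulator Cpeb4, the deubiquitinase Otud4, the chromatin remodelling subunit Ino80d, the zinc-finger gene Zfp955b, Dnajc27, Fam199x and the gene models Gm16638, Gm16485 and 2610203C20Rik, together with Wnk1. Their log2 differences to R6/2-C ran from 0.65 for Otud4 to 1.21 for Gm16485. On recovered fragments they were 0.43 for 2610203C20Rik in place of 0.75 and 0.47 for Cpeb4 in place of 0.77. Those of the others ran from 0.58 for Wnk1, in place of 0.71, to 1.17 for Gm16485. Wnk1, a kinase of ion transport, was the 1 gene of the 16 not called against WT-C. It was at 409, 368 and 372 CPM for WT-C, 213, 286 and 241 CPM for R6/2-C and 395, 412 and 404 CPM for R6/2-T. R6/2-C against WT-C gave -0.63 and R6/2-T against WT-C 0.08 (adjusted p = 0.65). Wnk1 alone among the 16 had opposite signs, both called, in the genotype step and the shRNA step, which share the R6/2-C libraries.

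R6/2-C against WT-T sets the genotypes against each other with the viruses exchanged, and shares no library with R6/2-T against WT-C. The shRNA enters both with opposite sign, so they do not measure the same quantity. R6/2-C against WT-T called 2199 genes (9.38%), 1233 higher (5.26%) and 966 lower (4.12%), of which 62 (0.264%) exceeded 1.5-fold. With only the 2 groups compared in the fit, the calls were 41 higher and 60 lower, so these counts and the overlap below rest on the spread shared over 12 libraries. The call was shared by 1454 genes, which is 24.66% of the 5896 and 66.12% of the 2199, and 1428 of them had the same sign. The counts of R6/2-C against WT-T were 435 higher and 401 lower without WT-T 2, 793 and 594 without WT-T 3, 676 and 642 without R6/2-C 1, and 616 and 486 without R6/2-C 3. Without WT-T 1 there were 1472 lower, and without R6/2-T 3, which enters only through the shared spread, 806 higher. Of the 5896, 89.31% had the same sign in R6/2-C against WT-T, against 70.37% of all genes tested and 63.25% of the genes called in neither. Over 14861 genes with a mean log2 CPM over 1 the log2 differences correlated with r = 0.56 and rho = 0.59, across genes, which are not independent replicates. The median absolute log2 difference was 0.33 in R6/2-T against WT-C and 0.23 in R6/2-C against WT-T.

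**Figure D5:**
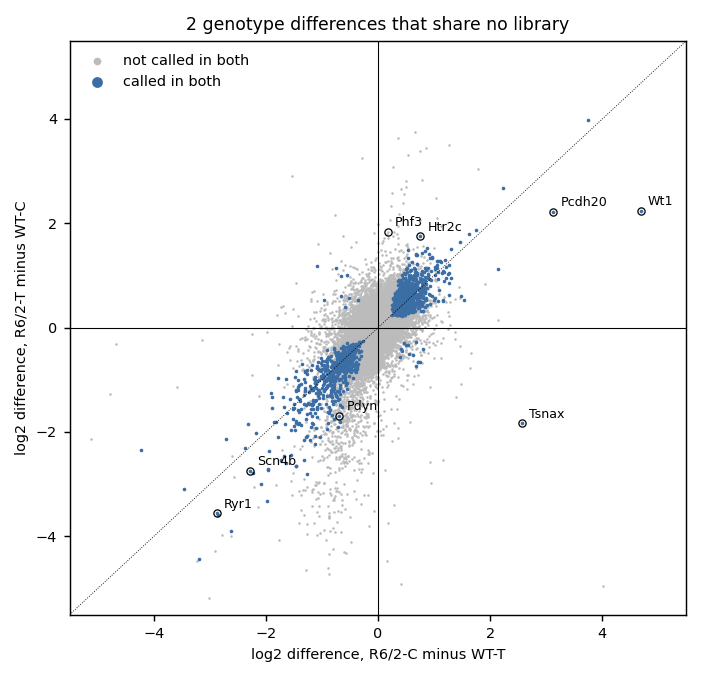
Log2 difference of R6/2-T minus WT-C against that of R6/2-C minus WT-T for 14861 genes with a mean log2 CPM over 1, with genes called in both in blue and the dotted line marking equal differences. Scn4b, Ryr1 and Pcdh20 lie far out with the same sign in both, Tsnax has opposite signs, Phf3 differs in R6/2-T minus WT-C and is near 0 in the other, and 7 genes beyond 5.5 log2 units lie outside the axes.

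Several named genes differed strongly in both comparisons. Scn4b was at -2.74 and -2.28, Ryr1 at -3.56 and -2.88, and Pcdh20 at 2.22 and 3.13, in R6/2-T against WT-C and in R6/2-C against WT-T. Mafa, a basic leucine zipper factor known from pancreatic beta cells, was at 4.12, 4.88 and 3.55 CPM for WT-C, 3.19, 3.22 and 3.61 CPM for WT-T, 0.516, 0.438 and 0.423 CPM for R6/2-C and 0.34, 0.304 and 0.393 CPM for R6/2-T. Its log2 differences were -3.59 and -2.86. Slc9a5, a sodium-proton exchanger, had -1.82 and -1.46, and Itga5, the fibronectin receptor subunit, -1.52 and -1.68. Armcx5, an armadillo-repeat gene of the X chromosome, rose in both, by 1.03 and 0.90.

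The difference between the 2 comparisons, which sums the shRNA change in both genotypes, was called for 51 genes (0.217%), 24 higher and 27 lower. Across 14829 genes it moved with transcript length (Pearson r = 0.264) and less with GC content (r = -0.062). The 51 became between 2 and 527 when 1 library was left out, and each of the 12 libraries moved it by over 1.5 times. Tsnax led, at -4.39. Tusc3, a subunit of the oligosaccharyl transferase, was at 109, 117 and 109.5 CPM for WT-C, 66.2, 71.8 and 70.6 CPM for WT-T, 143, 114 and 133 CPM for R6/2-C and 85.4, 92.03 and 101 CPM for R6/2-T, a difference of -1.18 (SE 0.14, adjusted p = 0.0117). In each library with the TRAX shRNA the level was below that of every library with the control shRNA. Tusc3, and Tm9sf4 and Slc5a6 named next, were picked by their small p in this difference. The order of their libraries is therefore no separate evidence, and the share of all genes with such an order is not given here. Tm9sf4, a membrane protein of the endosome, showed the same order, at 77.3, 72.3 and 78.03 CPM for WT-C, 49.4, 50.9 and 53.3 CPM for WT-T, 74.2, 73.8 and 75.6 CPM for R6/2-C and 60.1, 56.8 and 63.1 CPM for R6/2-T, a difference of -0.88 (SE 0.10, adjusted p = 0.0117). Slc5a6, the sodium-dependent multivitamin transporter, was higher with the TRAX shRNA in both genotypes, but was called within neither. R6/2-T was at 23.4, 23.8 and 22.6 CPM against 11.8, 10.8 and 10.7 CPM for WT-C, with a difference of 1.36 (SE 0.17, adjusted p = 0.0165). Tusc3 and Tm9sf4 were likewise called between the TRAX and the control shRNA within neither genotype.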

How the data were processed

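RNA of mouse striatum was sequenced by the authors after TRIzol or miRNeasy extraction (the sources used here do not say which for which library), with the TruSeq Stranded Total RNA Gold kit, per the labels' protocols. Per the submitters' processing notes, bcl2fastq 2.20, HISAT2 (version not given) and GRCm38 were used. The gene table deposited by the authors holds estimated counts from StringTie, per the file headers, at several counts per fragment, and a Cuffdiff signal of fragments scaled to a common library size. A second deposited table holds FPKM values. The sources used here state neither strand setting nor annotation. 12 other per-sample value columns were not used.

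The groups and the 35 gene lists were chosen with earlier results of these data known. Of 51912 genes, 34126 had a count and 23453 passed filterByExpr. Estimated counts, which were whole numbers, entered edgeR 4.0.16 under R 4.3.3 (TMM, robust quasi-likelihood F test, 4 group means over 12 libraries), with Benjamini-Hochberg adjustment over all genes and an adjusted p threshold of 0.05. The planned test assumed plain counts. Named genes were fixed genes of the pathway, the 12 largest called rises and falls whose mean log2 CPM was 1 or more and whose groups did not overlap, up to 4 members a list by smallest p, and the leading genes of the crossed comparison and the difference. Alternatives were RLE scaling, no filter, DESeq2 1.42.0, a replicate block, only 2 groups, non-robust estimation, fragments recovered from the signal (whole within 0.05), FPKM with limma 3.58.1 at pseudocounts 0.1 and 1, each library left out and, chosen after seeing the data, a GC and length correction. The scripts were tested on simulated data. Promoters came from RefSeq, GRCm38.p6. Some list members, counted in their lists, are not reported here by name.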

Additional observations from a re-analysis of the deposited data

Results flagged for a closer look

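Of the 51 genes whose 2 differences were unequal, the 16 named in the text are given here. They were singled out because the difference of R6/2-T to WT-C and that of R6/2-C to WT-T were themselves unequal by an edgeR quasi-likelihood test, with n = 3 libraries a group. The size of that inequality, in log2 units, was -4.39 for Tsnax, 1.91 for Gm16485, 1.66 for Phf3, 1.56 for Gm16638, -1.54 for Nptx2, 1.36 for Slc5a6, 1.22 for Dnajc27, -1.18 for Kcnip2, -1.18 for Tusc3, 1.05 for Cpeb4, 1.05 for Gpr161, 1.004 for Htr2c, -0.99 for Pdyn, 0.98 for Otud4, -0.98 for Prmt8 and -0.88 for Tm9sf4. Adjusted p-values ran from 1.38e-07 for Tsnax to 0.0372 for Kcnip2. On recovered fragments the inequality was 0.4062 for Phf3 in place of 1.66, and 0.5503 for Cpeb4 in place of 1.05. It stayed near the sizes above for Tsnax (-4.401), Gm16485 (1.88), Gm16638 (1.528), Nptx2 (-1.631), Dnajc27 (1.203), Pdyn (-1.02) and Otud4 (0.9497). For the other genes of this list the value on recovered fragments is not given here. Gpr161, a receptor of the primary cilium, was at 10.6, 10.8 and 10.5 CPM for WT-C, 13.03, 15.3 and 14.9 CPM for WT-T, 15.6, 18.1 and 17.1 CPM for R6/2-C and 25.9, 25.1 and 26.5 CPM for R6/2-T, higher with the TRAX shRNA in both genotypes. This shRNA difference was called within neither genotype alone. Prmt8, a brain arginine methyltransferase, was at 83.9, 83.2 and 85.1 CPM for WT-C, 56.8, 63.7 and 76.1 CPM for WT-T, 64.4, 63.9 and 59.6 CPM for R6/2-C and 41.5, 41.04 and 39.97 CPM for R6/2-T. For Prmt8 the WT-T and R6/2-C libraries lay between those of WT-C and R6/2-T. The whole count of such genes was small and unstable, as given with the crossed comparison.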

How the results depend on the processing

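With 5896 genes called, the higher and lower counts of 2942 and 2954 stayed within 1.5 times under each alternative that kept all libraries: RLE scaling, no filter, DESeq2, the replicate block (2474 and 2300), only the 2 groups compared, non-robust estimation, recovered fragments, FPKM, and the GC and length correction (3577 and 2626). Leaving out 1 library gave 1744 to 3327 higher and 1464 to 3488 lower. Genes over 1.5-fold, 430 as reported, were 717 with DESeq2, 819 with only the 2 groups, 255 with the block, 171 and 76 with FPKM at pseudocounts 0.1 and 1, and 159 to 594 with a library left out. Genes within 1.5-fold, 5970 as reported, were 14860 with FPKM at pseudocount 1 and 4838 to 6473 with a library left out. In R6/2-C against WT-T, the 1233 higher were 1856 on recovered fragments and 41 with only the 2 groups, the 966 lower were 1677 with DESeq2 and 60 with only the 2 groups, and with a library left out they were 435 to 1289 and 401 to 1472. The 51 genes of the difference were 792 with DESeq2, 166 on recovered fragments, 111 with the GC and length correction, 80 with FPKM at pseudocount 0.1, 3 with the block and 2 to 527 with a library left out. Tac1, not called, changed sign without WT-C 3 (0.048) and without R6/2-T 2 (0.063), in a range of -0.131 to 0.063. The causes were not tested. Replicate numbers were not used as pairs in the main fit. Deviations of same-numbered WT-C and R6/2-T libraries correlated by 0.113, 0.042 and 0.064. Over all pairs of groups these correlations ran from -0.253 (WT-T 1 and R6/2-C 1) to 0.203 (WT-C 1 and R6/2-C 1). Libraries with different numbers were not compared, so these values cannot decide whether the samples were paired. Of 156 called named genes, 153 had a value in all 22 alternatives and 107 of these kept their call in each. The other 3 had a value in fewer, 1 of them called throughout. In all 48 lost the call in at least 1 alternative, and 0 changed sign. The GC and length correction left 1 of 4 lower oligodendrocyte precursor genes, 3 of 5 interneuron genes and 0 of 1 erythroid gene, raised oxidative phosphorylation genes from 8 to 12, gave 5 higher and 1 lower of the TRAX partner genes, and moved the integrated stress response median from -0.33 to -0.05. Without the low-count filter, 4 antigen presentation, 1 lymphocyte and granulocyte and 3 interneuron genes were lower. With the block, 6 antigen presentation, 3 lymphocyte and granulocyte and 0 neurotrophin genes were lower. DESeq2 called 14 interferon-stimulated and 5 neurotrophin genes lower. FPKM called 3 of the 6 break repair genes at either pseudocount, 4 developmental factors higher at 0.1, and 2 lymphocyte and granulocyte genes lower at 1. Only the 2 groups compared gave 4 glutamate genes higher and 5 neurotrophin genes lower. The 1 rise in the indirect-pathway list was lost in 7 of these alternatives.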
